A study of Mus musculus with 4 samples.

Results

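Uap1 and 7 other genes of the hexosamine pathway were examined in mouse T cells that lack BATF3, a transcription factor of the AP-1 superfamily. The 8 genes are Gfpt1, Gfpt2, Gnpnat1, Pgm3 and Uap1, which make UDP-N-acetylglucosamine (UDP-GlcNAc), Nagk, which salvages GlcNAc, and Ogt and Mgea5, which add and remove GlcNAc on proteins. They are 8 of 25509 listed genes, found by symbol, and all 8 had enough reads to be among the 12135 genes tested. Uap1 was chosen by its measured rise in Batf3-/- cells, and the other 7 by their place in the pathway. The Batf3-/- against WT values of Uap1 are therefore a description, and its test result is read as no support. Splenic naive CD4+ T cells (CD25-negative, CD62L-high, CD44-low) were cultured for 72 h in all groups with antibodies to CD3 and CD28, TGFb, IL-4 and TL1A. This mixture drives the TH9 state, in which helper T cells secrete interleukin 9. There were 2 libraries of Batf3-/- cells and 2 of WT cells, from poly-A selected RNA; the library kit keeps strand. The labels name no strain, mouse or age, do not say how the Batf3 allele was made, and do not say whether replicates came from separate mice or cultures. The p-values given here measure the spread between these 4 samples and no more.

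The hexosamine pathway diverts fructose phosphate from glycolysis, adds nitrogen from glutamine and an acetyl group from acetyl-CoA, and joins the product to UTP to give UDP-GlcNAc. GFAT enzymes (Gfpt1, Gfpt2) take the committed step, GNPNAT1 acetylates, PGM3 moves the phosphate, and UAP1 performs the final coupling to UTP. UDP-GlcNAc feeds N-glycan branching, glycolipid anchors and glycosaminoglycans, and is the donor for O-GlcNAc, a single sugar placed on nuclear and cytoplasmic proteins by OGT and removed by the enzyme that Mgea5 encodes. Activated T cells take up more glucose and glutamine, and in them both O-GlcNAc and branched surface glycans depend on this supply.

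Estimated counts summed to 31098059 and 15624874 in Batf3-/- replicates 1 and 2 and to 23754946 and 27285811 in WT replicates 1 and 2. Batf3 had 17 and 8 counts in the Batf3-/- libraries and 1439 and 1661 counts in the WT libraries, so each library carried the level its genotype label implies. The 8 T cell markers, Cd3e and Cd4 among them, summed to 2239 and 2301 CPM (counts scaled to the TMM-normalized library total) in Batf3-/- and to 2385 and 2135 CPM in WT libraries. B cell markers summed to 9.88 to 13.2 CPM over the 4 libraries, with Ms4a1 at 0, and those of dendritic cells to 5.88 to 9.09 CPM, with Clec9a at 0. Most of each sum came from a single gene, Cd79b at 9.62 to 13.1 CPM and Zbtb46 at 4.91 to 7.24 CPM. CD8 and NK markers summed to 7.31 to 9.09 CPM, nearly all of it Cd8b1 (7.24 to 8.92 CPM), with Ncr1, Klrb1c and Klra8 at 0. Myeloid markers stayed at or below 0.645 CPM, with Lyz2 at 0. Correlations between libraries ran from 0.971 to 0.982. Where a member changes direction or call without WT replicate 1, both values are given.

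The gene the results turn on, Uap1 (ENSMUSG00000026670.15, protein coding), lies on GRCm38 chromosome 1 from 170141938 to 170174957 on the minus strand. The 250 bases before its RefSeq start are shown because they are the promoter of the 1 gene among the 8 whose RNA differed by more than 2-fold between the genotypes. They span chr1:170174965-170175214 on the minus strand of GRCm38.p6 and are given 5′ to 3′. Capitals mark the match to TGACGT, the core of the element that CREB and ATF factors bind.
Uap1: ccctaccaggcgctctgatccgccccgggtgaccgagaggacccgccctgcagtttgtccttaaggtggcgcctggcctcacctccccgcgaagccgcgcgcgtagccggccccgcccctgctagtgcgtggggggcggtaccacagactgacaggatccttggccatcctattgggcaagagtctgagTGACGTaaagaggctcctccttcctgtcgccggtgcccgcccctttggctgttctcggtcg
The match begins 61 bases before the start. TGACGT was searched on both strands and occurs in the window of 7.29% of 27025 genes with a promoter in the table. The AP-1 letters TGANTCA, which occur in 7.82% of genes, have no match in this window. Of the other members with an entry, Gfpt2 held 1 TGANTCA, and Gfpt1, Pgm3, Nagk, Ogt and Mgea5 (entered as Oga) held neither motif. These are matches of letters, and no binding was measured.

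Uap1, which makes the finished UDP-GlcNAc, was higher in Batf3-/- cells than in WT cells by 2.71-fold. It had 4640 and 2253 counts in Batf3-/- replicates 1 and 2, and 1250 and 1482 counts in WT replicates 1 and 2. After normalization these are 146.0 and 145.7 CPM in Batf3-/- libraries, against 53.6 and 54.0 CPM in WT libraries. The groups do not overlap, and the libraries of each group are nearly level. With 2 libraries per group, this closeness is no measure of how much Uap1 varies between samples. The means were 146 ± 0.249 CPM in Batf3-/- and 53.8 ± 0.306 CPM in WT cells (SD, n = 2 each), a log2 fold change of 1.44 (SE 0.185). The log2 ratio was 1.45 within replicate number 1 and 1.43 within replicate number 2. All 4 Uap1 counts were whole numbers; reads shared between loci show as fractions in these estimates. In bulk RNA, more cells that express a gene and more RNA per cell cannot be told apart.

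**Figure D1:**
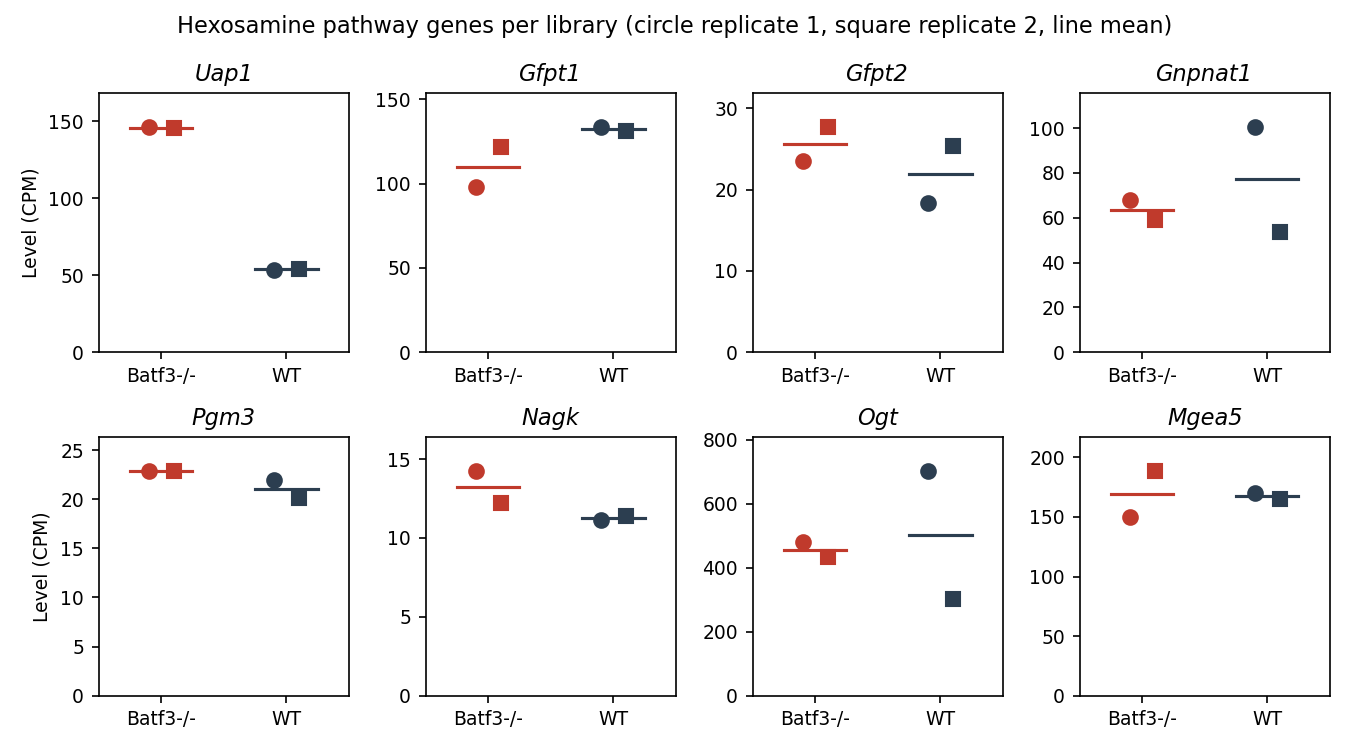
Level of each of the 8 genes in CPM (linear axis from 0) in the Batf3-/- (red, left) and WT (dark, right) libraries, with circles for replicate 1, squares for replicate 2 and lines at group means. Uap1 stands at 146.0 and 145.7 CPM in Batf3-/- libraries against 53.6 and 54.0 in WT libraries, while Ogt and Gnpnat1 are spread mainly by WT replicate 1.

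The enzymes upstream of UAP1 did not pass the test in edgeR and showed no common direction. Gfpt1 (GRCm38 chromosome 6, 87042846 to 87092197), the GFAT gene of most tissues, stood at 98.3 and 121.5 CPM in Batf3-/- libraries and at 133 and 132 CPM in WT libraries. Both Batf3-/- libraries were the lower ones, and replicate 1 was lower than replicate 2. On the log2 scale the difference was -0.27 (SE 0.188, 95% interval -0.67 to 0.12). Gfpt2, its paralog, stood at 23.5 and 27.7 CPM in Batf3-/- and at 18.3 and 25.4 CPM in WT libraries, which overlap. Its log2 fold change was 0.22 (SE 0.223, interval -0.25 to 0.69), and it was -0.005 without WT replicate 1.

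Gnpnat1, the acetyltransferase of the pathway, stood at 68.1 and 59.0 CPM in Batf3-/- libraries and at 100.4 and 53.8 CPM in WT libraries. The WT values enclose both Batf3-/- values, and WT replicate 1 alone is high. The log2 fold change was -0.28 (SE 0.249, interval -0.81 to 0.26). Leaving out WT replicate 1 turned it to 0.23. Leaving out WT replicate 2 gave -0.66, which passed in edgeR (adjusted p = 0.0286), with the lone WT library assumed to vary like the others. Within replicate numbers 1 and 2 the log2 ratios were -0.56 and 0.13. Its exons share 3878 bases with those of Styx on the opposite strand, and 3 of its 4 counts were fractional. Whether the counting used strand is not given in the sources used here. Reads of this pair therefore cannot be told apart, although Styx was listed at only 3.01 to 4.62 CPM.

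Pgm3, the phosphate mutase one step before UAP1, stood at 22.9 CPM in both Batf3-/- libraries and at 21.9 and 20.1 CPM in WT libraries. The groups do not overlap, but they differ by less than 3 CPM, and the log2 fold change was 0.12 (SE 0.209, interval -0.31 to 0.56). All 4 counts of Pgm3 were fractional and it overlaps Dop1a on the opposite strand, so its level is uncertain. Uap1l1, a paralog of Uap1, was among the other genes of the synthesis list, at 6.48 and 6.98 CPM in Batf3-/- and 4.29 and 6.20 CPM in WT libraries (log2 difference 0.35, SE 0.288). It did not pass the test in edgeR (adjusted p = 0.958, interval -0.25 to 0.95).

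Salvage and O-GlcNAc cycling genes did not pass either. Nagk, the kinase that returns free GlcNAc to the pathway, stood at 14.3 and 12.2 CPM in Batf3-/- and 11.1 and 11.4 CPM in WT libraries. Its groups do not overlap, at a log2 fold change of 0.24 (SE 0.233, interval -0.25 to 0.73). Mgea5, which encodes the O-GlcNAc-removing enzyme, stood at 149.7 and 189 CPM in Batf3-/- libraries, on either side of 170.1 and 165 CPM in WT libraries. Its log2 fold change was 0.01 (SE 0.191, interval -0.39 to 0.41). It shares 551 exon bases with the antisense gene Gm15491, and all 4 of its counts were whole numbers.

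Ogt, the O-GlcNAc transferase gene on the X chromosome, was the most abundant of the 8 and the most uneven between the WT replicates. It stood at 481 and 432 CPM in Batf3-/- libraries, against 703 and 301 CPM in WT libraries. The WT libraries enclose both Batf3-/- libraries, and they differ from each other by 1.22 on the log2 scale, a gap that 3.46% of tested genes reach. The Batf3-/- replicates differ by 0.15. Over all libraries the log2 fold change was -0.14 (SE 0.356, interval -0.96 to 0.69). Leaving out WT replicate 1 turned it to 0.59. Leaving out WT replicate 2 gave -0.62, again with the lone WT library assumed to vary like the others. Within replicate numbers 1 and 2 the log2 ratios were -0.55 and 0.52.

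Values that move with replicate number were set beside this result. Xist, transcribed from the inactive X chromosome, was at 0.0944 and 143.8 CPM in Batf3-/- replicates 1 and 2 and at 0.214 and 165.8 CPM in WT replicates 1 and 2. Ddx3y, Uty, Eif2s3y and Kdm5d, which are Y-linked, summed to 243 and 182 CPM in Batf3-/- and to 344 and 146 CPM in WT libraries. The median of the other 392 tested X-linked genes was higher in replicate 1 by 0.05 in Batf3-/- and by 0.15 in WT cells (log2), against 0.00 and -0.01 for autosomal genes. Xist RNA thus separated replicate 1 from replicate 2 in both genotypes, while Y-linked RNA was present in every library. The main fit had genotype as its only term and did not adjust for this. The part of these sex-linked differences in the Ogt values was not tested. With offsets for transcript GC content (42.9% for Ogt and 39.0% for Gnpnat1) the log2 fold changes were 0.05 for Ogt and -0.02 for Gnpnat1.

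**Figure D2:**
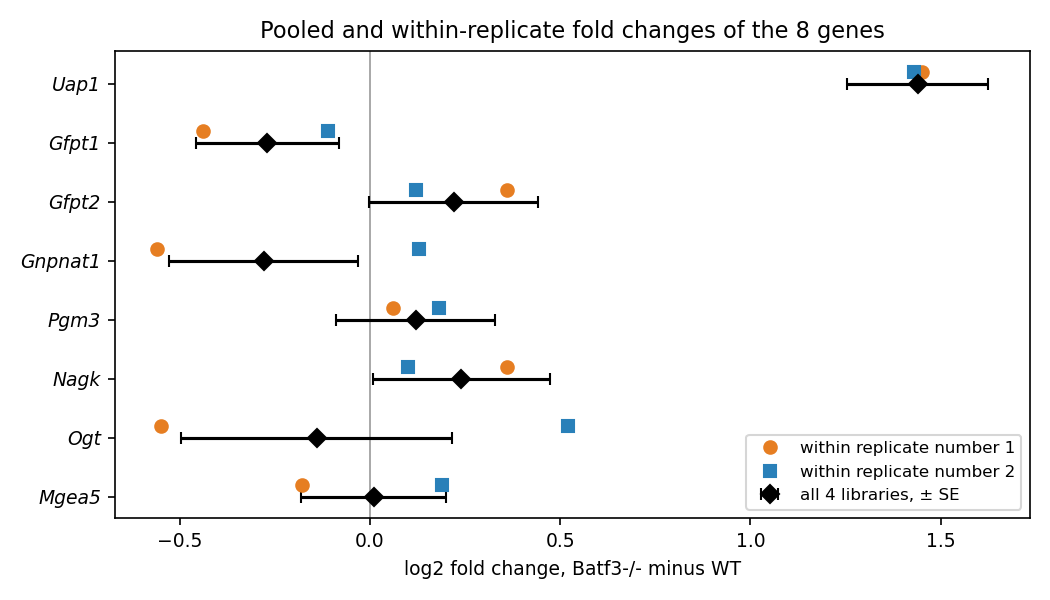
Log2 fold change (Batf3-/- minus WT) of each gene over all 4 libraries (black diamonds, bars ± SE) and within replicate numbers 1 (orange circles) and 2 (blue squares). Uap1 lies at 1.45 and 1.43 in the pairs, whereas Ogt lies at -0.55 and 0.52.

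Of the 8 genes, 1 was called higher in Batf3-/- cells at an adjusted p under 0.05, and 0 were called lower; the called gene is Uap1, which the choice of members had fixed. Among all tested genes 16 were called (0.132%), 10 higher (0.0824%) and 6 lower (0.0494%). Of the other 7, 0 had an adjusted p under 0.05 (lowest 0.958, edgeR), 0 had an unadjusted p under 0.05, and 0 were called by DESeq2 or limma-voom. An unadjusted p under 0.05 was reached by 4.8% of all tested genes. The highest upper bound among the 95% intervals of the 7 was 0.73, for Nagk. The libraries of the 2 genotypes did not overlap for 4 of the 8 (3 higher, 1 lower), among them Uap1, which was fixed by its choice. Of the other 7, 3 did not overlap (2 higher, 1 lower). Over all tested genes 33.8% did not overlap, 18.2% higher and 15.6% lower. The median log2 fold change of the 7 was 0.01, against -0.01 for all tested genes. This median of the 7 was -0.18 within replicate number 1 and 0.13 within replicate number 2. It was 0.17 when WT replicate 1 was left out, -0.05 when Batf3-/- replicate 2 was, and 0.09 with GC offsets.

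Within each library the balance of the pathway differed between the genotypes. Per CPM of Pgm3, Uap1 stood at 6.38 and 6.36 CPM in Batf3-/- libraries and at 2.44 and 2.68 CPM in WT libraries. Divided by the length of the longest annotated transcript, Uap1 made up 52.7% and 51.8% of the summed CPM per kb of the 5 synthesis genes in Batf3-/- libraries, against 24.4% and 29.2% in WT libraries. These ratios contain the Uap1 values that chose it. The 4 other synthesis genes together summed to 213 and 231 CPM in Batf3-/- libraries and to 274 and 231 CPM in WT libraries.

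On the per-length scale, the order of mean levels in Batf3-/- cells was Ogt (84.9 CPM per kb), Uap1 (63.1), Mgea5 (33.5), Gnpnat1 (22.8), Gfpt1 (17.6), Gfpt2 (8.68), Pgm3 (8.59) and Nagk (6.90). In WT cells it was Ogt (93.3 CPM per kb), Mgea5 (33.2), Gnpnat1 (27.6), Uap1 (23.3), Gfpt1 (21.2), Pgm3 (7.89), Gfpt2 (7.42) and Nagk (5.86). Mgea5 and Gnpnat1 thus ranked below Uap1 in Batf3-/- cells and above it in WT cells. This change of order contains the Uap1 values that chose it. In Batf3-/- cells Gfpt2 and Pgm3 did not differ beyond their spread. In WT cells the same held for that pair, and for Gnpnat1 with Uap1, with Gfpt1 and with Mgea5, since the 2 Gnpnat1 values were 36.0 and 19.3 CPM per kb.

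**Figure D3:**
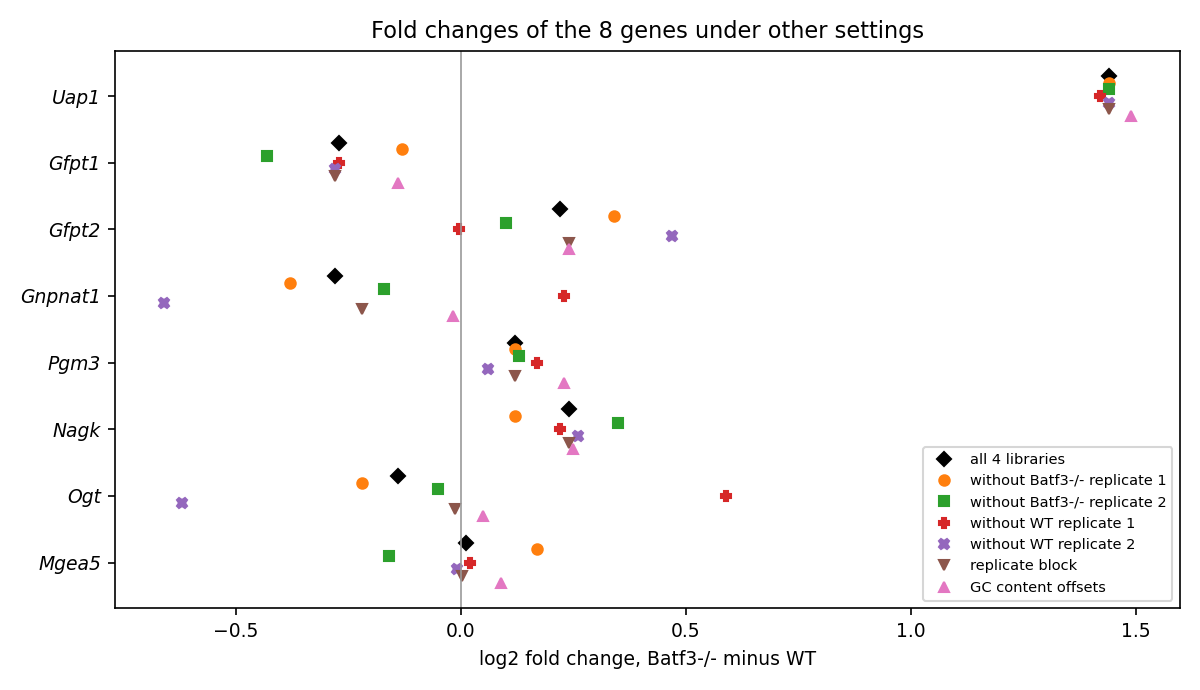
Log2 fold changes (Batf3-/- minus WT) of the 8 genes with all libraries (black diamonds) and with each library left out, the replicate block or GC offsets (coloured symbols, see legend). Uap1 stays between 1.42 and 1.49, and Ogt ranges from -0.62 to 0.59 depending on which WT library is left out.

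A wider set of 102 genes that supply, carry, use or break down UDP-GlcNAc and related sugars was grouped in 9 lists by role. Of these, 95 were tested, 1 was called higher (Uap1) and 0 lower. Without the 8 members, 87 were tested, and edgeR, DESeq2 and limma-voom each called 0 in either direction. In edgeR 8 of the 87 had an unadjusted p under 0.05, against 583 (4.8%) of all 12135 tested genes. Of the 87, 49 had positive and 38 negative log2 fold changes, against 5871 positive and 6264 negative over all tested genes. The median of the 87 was 0.07, against -0.01 for all tested genes. This median was 0.01 when either Batf3-/- replicate 2 or WT replicate 1 was left out, 0.15 when WT replicate 2 was, and was 0.03 with GC offsets. It was 0.07 within replicate number 1 and 0.03 within replicate number 2.

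No gene of the following lists passed in edgeR, and the 2 with the smallest p in each are given as values. In the salvage and breakdown list (9 tested, median 0.05) these were Naglu, a lysosomal glucosaminidase, at a log2 fold change of 0.67 and Amdhd2, a GlcNAc phosphate deacetylase, at 0.40. Naglu stood at 9.69 and 8.54 CPM in Batf3-/- and at 3.73 and 7.65 CPM in WT libraries, so WT replicate 1 was low. Its value became 0.25 when WT replicate 1 was left out, and 1.30 when WT replicate 2 was, each against a lone WT library. In the O-GlcNAc list (3 tested, median -0.07), Eogt, a transferase of the endoplasmic reticulum, stood at -0.07. The synthesis list, Uap1 included, had a median of 0.17 over 6 tested genes.

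In the N-glycan list (14 tested, median -0.05), Mgat3, which adds the bisecting GlcNAc, stood at 1.23, but on 13 and 7 counts in Batf3-/- and 5 and 4 counts in WT libraries. Alg13, a subunit of the enzyme that adds the second GlcNAc to the lipid precursor, stood at -0.32, and at -0.06 when WT replicate 1 was left out. Mgat5, which makes the most branched N-glycans of T cells, stood at 44.0 and 50.2 CPM in Batf3-/- and at 39.4 and 71.7 CPM in WT libraries. Those WT libraries enclose both Batf3-/- libraries. In the anchor list (7 tested, median 0.12), Dpm2 stood at 0.49 and Pigc at 0.51; both encode subunits of the complex that puts GlcNAc on phosphatidylinositol.

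Among other GlcNAc transferases (13 tested, median 0.15), Mfng, a Fringe enzyme that modifies Notch, stood at 46.4 and 46.0 CPM in Batf3-/- and at 31.3 and 32.5 CPM in WT libraries. Its groups do not overlap, with a log2 difference of 0.53 (SE 0.194; adjusted p = 0.835 in edgeR). B3gnt2, which extends lactosamine chains, stood at 0.51 with all libraries. It stood at 0.29 when WT replicate 1 was left out and at 0.76 when WT replicate 2 was, each against a lone WT library.

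Among carriers and other nucleotide sugar genes (19 tested, median 0.03), Galk1, galactokinase, stood at 0.40, and at -0.004 with GC offsets. Slc35a3, a Golgi carrier of UDP-GlcNAc, stood at -0.33, and at -0.07 when WT replicate 1 was left out. In the supply list (19 tested, median 0.07), Nme2, a nucleoside diphosphate kinase, stood at 0.57 and the glutamine transporter gene Slc1a5 at 0.49. Slc1a5 stood at 218 and 178 CPM in Batf3-/- libraries and at 138 and 145 CPM in WT libraries, without overlap. Its adjusted p was 0.872 in edgeR. GC offsets also brought Mfng to 0.28, Amdhd2 to 0.08, Naglu to 0.39, Slc1a5 to 0.29, Alg13 to -0.17 and Slc35a3 to -0.09.

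In the sialic acid branch (5 tested, median 0.07), Slc35a1, the CMP-sialic acid carrier, stood at -0.24. Nanp, a sialic acid phosphatase, had the lowest value in the 9 lists, -2.75 (SE 0.771, adjusted p = 0.647 in edgeR). It rests on 20.62 and 0 counts in Batf3-/- libraries, against 103.09 and 41.24 counts in WT libraries. Its counts above 0 are close to whole multiples of 20.62, so they are estimates rather than plain numbers of reads. Every fit treated them as numbers of reads, so the level and the p-values of Nanp are uncertain. Among the fits with 1 library left out, it passed in edgeR without WT replicate 2 (-3.34, adjusted p = 1.13e-05) and without Batf3-/- replicate 1 (-9.01, a fit against 0 counts that sets no bound), and it stood at -1.79 without WT replicate 1.

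**Figure D4:**
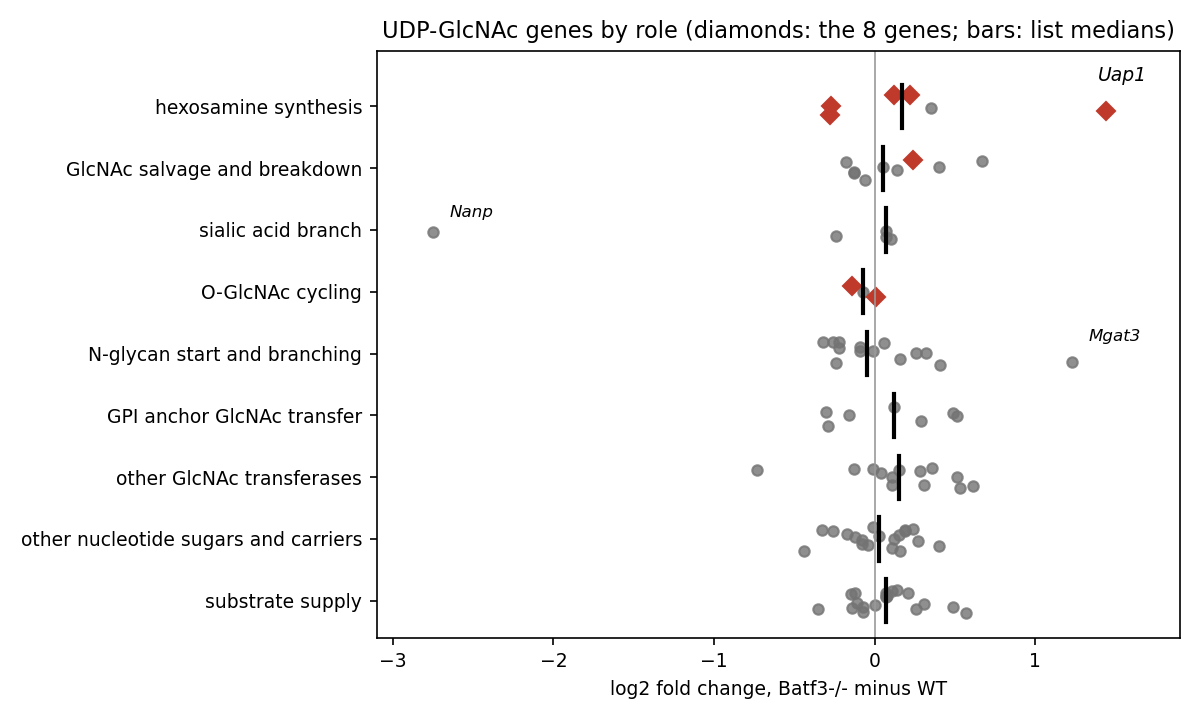
Log2 fold changes (Batf3-/- minus WT) of the tested genes of each list, one row per list, with the 8 genes as red diamonds, the others as grey circles and list medians as black bars. List medians lie between -0.07 and 0.17, Uap1 lies at 1.44, and the outlying Nanp and Mgat3 rest on few counts.

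Uap1 lies on the same chromosome as Batf3, which begins 20.9 Mb beyond its end, and none of the other 7 members is on chromosome 1. The tested genes whose annotated start lies within 1 Mb of that of Uap1 numbered 8. Its closest tested neighbours did not pass in edgeR. Uhmk1, a kinase gene 51.5 kb away, stood at 128 and 184 CPM in Batf3-/- and at 175 and 204 CPM in WT libraries, which overlap. Hsd17b7, a steroid-synthesis gene 192 kb away on the other side, stood at 106.5 and 113 CPM in Batf3-/- and at 94.4 and 94.5 CPM in WT libraries. Their log2 fold changes were -0.28 and 0.22.

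Further out, Nuf2, a kinetochore gene, stood at -0.36, Dusp12, a phosphatase gene, at 0.25, and Atf6, an endoplasmic reticulum stress factor, at -0.41. Of the 8, 2 were called higher and 0 lower: Fcgr2b and Fcgr3, neighbouring Fc receptor genes 817 and 909 kb from Uap1. Fcgr3 and Sdhc (-0.01) were named after their values were seen. Fcgr3 had 570.24 and 218.3 counts in Batf3-/- and 4 and 9 counts in WT libraries, and Fcgr2b had 33.76 and 21.7 counts in Batf3-/- and 0 in both WT libraries. The called share was 2 of 8 here, against 0.132% over all tested genes. An unadjusted p under 0.05 in edgeR was reached by 3 of the 8, Atf6 among them, against 4.8% of all tested genes. The libraries did not overlap for 4 of the 8, against 33.8% of all tested genes. Among these 4, Hsd17b7 was higher and Atf6 lower in Batf3-/- cells. Whether the position of Uap1 bears on its level was not tested.

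**Figure D5:**
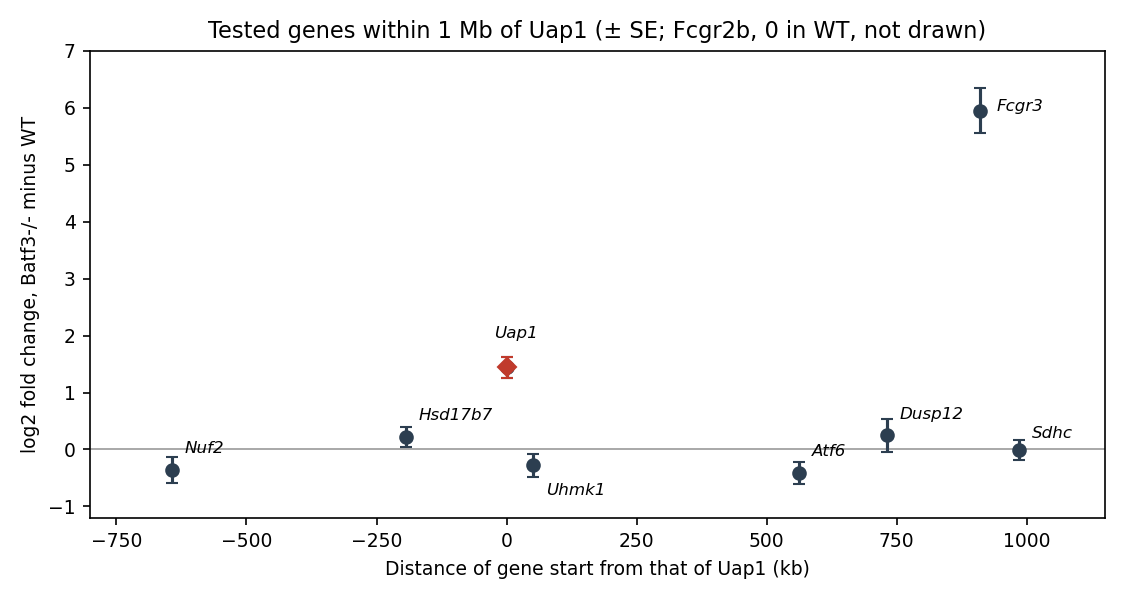
Log2 fold change (Batf3-/- minus WT, ± SE) of tested genes against the distance of their annotated start from that of Uap1, in kb; Fcgr2b, at 0 counts in WT, is not drawn. Uap1 (red diamond) stands at 1.44 between Hsd17b7 (0.22) and Uhmk1 (-0.28), and Fcgr3 stands at 5.95.

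The 5 tested genes whose pattern over the 4 libraries was most like that of Uap1 were taken by the root mean square difference between centred log2 CPM values. They were Gm20186 (0.0887), Scrt1 (0.107), Gm16861 (0.113), Cdc42bpa (0.148) and Fam221b (0.152), and none of them passed the test. Scrt1 encodes a zinc finger factor, and stood at 6.61 and 6.60 CPM in Batf3-/- and 2.87 and 2.44 CPM in WT libraries. Cdc42bpa, a kinase gene, stood at 9.60 and 10.6 CPM in Batf3-/- and 3.39 and 4.43 CPM in WT libraries. It also lies on chromosome 1, from 179960472 to 180165603, between Uap1 and Batf3. Whether this position bears on its level was not tested. All but Scrt1 carried fractional counts. Among the other 7 members, the closest to the Uap1 pattern was Nagk (0.608), at place 1843 of the tested genes, and the farthest was Gnpnat1 (0.889), at place 10518.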

How the data were processed

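RNA was sequenced from 2 Batf3-/- and 2 WT libraries. The authors deposited RSEM expected counts per gene, estimates that divide reads shared between loci. Per the submitters' processing notes, STAR 2.5.0, RSEM 1.2.25 and build GRCm38 were used. The release of the annotation and the strand setting were not stated there. The table lists 25509 genes and 92 spike-in entries, which were 0 and were left out. Columns were assigned to samples by title and groups by genotype label.

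Expected counts were rounded and tested across all genes in R 4.3.3 with edgeR 4.0.16 (filterByExpr, minimum count 10; TMM, factors 0.982 to 1.02; robust quasi-likelihood test, two-sided, genotype as the only term), with Benjamini-Hochberg adjustment over 12135 genes at 0.05. Standard errors were taken from the F statistics, and 95% intervals from them and the test's degrees of freedom. Log2 ratios within a replicate number use a prior count of 0.5. The common biological coefficient of variation was 0.171, and the chi-square statistic of replicate counts, divided by its degrees of freedom, was 24.0 in Batf3-/- and 66.3 in WT, so no libraries were merged. The scripts were tested on simulated data.

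The alternatives were DESeq2 size factors, upper-quartile scaling, no filter, DESeq2 1.42.0, limma-voom 3.58.1, leaving out each library, the replicate number as a block, and GC offsets (loess on the GC share of each gene's longest transcript, known for 12105 tested genes). Positions, overlaps, lengths and GC content come from GENCODE M21 (GRCm38); the promoter comes from RefSeq (GRCm38.p6), where 7 of the 8 members matched. The members and lists were chosen with earlier results of these data known. Pathway genes were named if past the threshold, or else the 2 with the smallest p per list, apart from the members; 5 genes by likeness to Uap1 and up to 4 neighbours on each side were named by rule. Uap1l1, Mgat5, Styx and Dop1a were named outside the rule. Pigy, of the anchor list, was not used here.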

Additional observations from a re-analysis of the deposited data

How the results depend on the processing

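Over 11 other settings the log2 fold change of Uap1 stayed between 1.42 and 1.49, and leaving out single libraries gave 1.42 to 1.44. The 8 genes gave 88 other values, of which 80 kept direction and side of the threshold. The exceptions were Gfpt2 (-0.005 to 0.47), Gnpnat1 (-0.66 to 0.23), Ogt (-0.62 to 0.59) and Mgea5 (-0.16 to 0.17) when single libraries were left out, Mgea5 being at -0.0082 without WT replicate 2; and Ogt (0.05) with GC offsets. Members called lower numbered 0 with all libraries and 0 to 2 with 1 left out.

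Over all lists, genes called higher numbered 1 with all libraries and 1 to 4 with 1 left out, and genes called lower 0, and 0 to 3; without WT replicate 2 the calls were Uap1, Naglu, Cad and B3gnt2 higher and Ogt, Gnpnat1 and Nanp lower. With 1 library left out, Slc35a1 ranged from -0.60 to 0.22 and Eogt from -0.20 to 0.036. Eogt reached 0.01 with GC offsets, and Galk1 reached -0.004 with GC offsets. Over all genes, the 10 higher and 6 lower calls became 11 to 301 higher and 7 to 252 lower when 1 library was left out, the most without WT replicate 2. Leaving out WT replicate 1 gave 38 higher and 24 lower calls, leaving out Batf3-/- replicate 2 gave 23 higher and 15 lower, and DESeq2 called 21 higher. The causes were not tested.

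With the replicate number as a block, 81 genes were called higher and 31 lower, with Nanp (-3.08, adjusted p = 2e-06) the 1 lower call in the lists, in a fit whose estimated prior degrees of freedom were infinite. Across the tested genes, the deviations of the replicate 1 libraries of the 2 genotypes from their group means correlated at 0.105. With 2 libraries per group, the replicate 2 deviations are the same with opposite sign. The titles give same-numbered libraries of both genotypes a shared code, and Xist follows it. No label says what the code marks, so no pairing was assumed. With 2 libraries per group, changes as small as those of the 7 other members are hard to tell from 0, as their intervals show.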

Other observations

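Balances between paralogs and between opposing enzymes also varied by library. Per CPM of Gfpt2, Gfpt1 stood at 4.19 and 4.39 CPM in Batf3-/- libraries and at 7.28 and 5.18 CPM in WT libraries, so that both Batf3-/- ratios were the lower ones. The ratio was not tested, and neither gene passed in edgeR. Among all tested genes, 33.8% did not overlap between the genotypes. WT replicate 1 had the highest ratio, and without it the log2 fold change of Gfpt2 was -0.005. Per CPM of Mgea5, Ogt stood at 3.22 and 2.29 CPM in Batf3-/- libraries, between 4.14 CPM in WT replicate 1 and 1.82 CPM in WT replicate 2. In both genotypes this ratio of writer to eraser transcript was higher in replicate 1 than in replicate 2. These are ratios of RNA, and enzyme activity and O-GlcNAc itself were not measured.

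The differences between replicates were not shared by the whole pathway. Between WT replicates 1 and 2, Gnpnat1 differed by 0.90 on the log2 scale and Ogt by 1.22, in the same direction, and Gfpt2 differed by -0.47 (replicate 1 minus replicate 2). Uap1 differed by -0.01, Gfpt1 by 0.02, Nagk by -0.03 and Mgea5 by 0.04. Between the Batf3-/- replicates the 8 genes differed by -0.33 to 0.22.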
